A study of Mus musculus with 6 samples.

Results

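B cell surface and signalling genes were followed in lung RNA of Zpbp2 KO and WT mice. The 9 genes are Ms4a1, Cd79a, Cd79b, Cd22, Cr2, Fcer2a, Pax5, Blk and Ebf1, and they were found by an exact match of the gene symbol in a table of 41388 rows. They matched 10 rows, because Cr2 is listed under 2 identifiers. All 9 genes passed the filter on low counts. The mice were adults, the labelled strain of every library was C57BL/6J, and all lungs were taken at ZT7, 7 h after lights on. KO mice carried a deletion of the first exons and promoter region of Zpbp2, made as a B6.129S7 line and kept on the C57BL/6J background, so any donor strain DNA left near Zpbp2 cannot be told apart from the deletion. WT mice carried no deletion and were born in the same colony. Each genotype had 3 libraries, named WT1, WT2 and WT3 or KO1, KO2 and KO3, and the study describes each as 1 mouse.

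B cells bind antigen through a membrane antibody that is held by the signalling pair CD79A and CD79B. When antigen is bound, Src family kinases such as BLK phosphorylate the tails of that pair and start the signal. CD20 (Ms4a1) is a membrane protein of mature B cells, CD22 is an inhibitory coreceptor, complement receptor CD21/CD35 (Cr2) lowers the threshold for activation, and CD23 (Fcer2a) is the low-affinity IgE receptor of follicular B cells. The transcription factors EBF1 and PAX5 set up and keep the B cell programme. In the lung, B cells lie in the capillaries and interstitium and in small lymphoid clusters along the airways.

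Sequencing depth, as total counts, lay between 59134950 (KO3) and 71354388 (WT1). Zpbp2 had 20, 15 and 7 counts in WT1 to WT3 and 1, 0 and 0 in KO1 to KO3. KO2 and KO3 were close to counting noise of each other: their variance was 1.71 to 1.93 times the counting variance for genes with 20 to 20000 counts in the pair, 3.32 times above 20000 counts and 3.11 times over the rows of the 9 genes, while the ratio rose from 1.86 to 9.32 for WT1 and WT2 and from 3.74 to 21.0 for KO1 and KO2 in the same classes up to 20000 counts. Other pairs of a group had 15.9 to 51.9 times over the rows of the 9 genes. The values by count class are scaled medians over genes, while those over the rows of the 9 genes are means over 10 rows. They cannot be set directly against each other. The pair KO2 and KO3 thus entered as a single sample (n = 3 for WT and n = 2 for KO), and the fit with 6 separate libraries is given beside the calls it changes. WT3 and KO1 stood apart by squamous epithelium transcripts, whose 11 markers summed to 4533 and 8482 CPM (counts scaled to a common library size), against 7.89 to 13.4 CPM in the other libraries. All 6 lung markers examined, among them Sftpc, Scgb1a1 and Ager, were detected in every library, and they summed to 42400 to 46050 CPM in WT and 60140 to 69450 CPM in KO. All 6 had higher estimates, with Pecam1 at 0.01, and 3 were called higher (Sftpc, Sftpb and Ager). With 6 libraries Pecam1 was at -0.04 and 4 of the lung markers were called higher, as were 9.81% of all genes. The part of the lung markers in the lower B cell values was not tested.

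Promoter windows are shown because the regulators EBF1 and PAX5 are themselves among the 9 genes, though no PAX5 motif was searched. RefSeq gave windows on GRCm38.p6, from 250 bases before to 50 after the start site, for 6 of the 9 genes, all but Ms4a1, Cd79b and Blk. Those printed are of Cd79a (chr7:24897247-24897546, plus strand), Cd22 (chr7:30878979-30879278, minus strand), Cr2 (chr1:195176670-195176969, minus strand) and Pax5 (chr4:44710645-44710944, minus strand), each 5′ to 3′ along the gene. The RefSeq start of Cd22 lies within the gene span given below, and the Pax5 window lies wholly upstream of the span given for Pax5. Cd79a and Cd22 stand for the receptor and its inhibitor, Cr2 for the lowest estimate in KO and Pax5 for the only gene higher by its estimate. Capitals mark matches, on either strand, to an EBF1 site (TCCC and GGGA with any 2 bases between them), the octamer (ATGCAAAT), an E-box (CAGGTG) or an ETS core (AGGAAGT).
Cd79a: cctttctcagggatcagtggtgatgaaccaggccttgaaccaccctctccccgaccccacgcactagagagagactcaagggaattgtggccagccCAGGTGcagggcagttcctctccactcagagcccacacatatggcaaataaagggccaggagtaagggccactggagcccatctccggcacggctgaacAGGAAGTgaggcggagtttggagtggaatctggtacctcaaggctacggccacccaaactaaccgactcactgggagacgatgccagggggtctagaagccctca
Cd22: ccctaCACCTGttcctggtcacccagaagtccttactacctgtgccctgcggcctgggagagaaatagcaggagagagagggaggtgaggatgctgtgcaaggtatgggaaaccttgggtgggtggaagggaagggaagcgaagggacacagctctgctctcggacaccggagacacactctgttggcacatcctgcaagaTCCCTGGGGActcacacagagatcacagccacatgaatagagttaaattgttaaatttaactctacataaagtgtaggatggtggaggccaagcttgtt
Cr2: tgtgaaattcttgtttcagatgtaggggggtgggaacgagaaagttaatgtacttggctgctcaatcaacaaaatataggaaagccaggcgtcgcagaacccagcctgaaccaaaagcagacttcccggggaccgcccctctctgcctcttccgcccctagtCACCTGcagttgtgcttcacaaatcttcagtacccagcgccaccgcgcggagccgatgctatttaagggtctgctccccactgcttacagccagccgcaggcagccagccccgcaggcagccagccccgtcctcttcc
Pax5: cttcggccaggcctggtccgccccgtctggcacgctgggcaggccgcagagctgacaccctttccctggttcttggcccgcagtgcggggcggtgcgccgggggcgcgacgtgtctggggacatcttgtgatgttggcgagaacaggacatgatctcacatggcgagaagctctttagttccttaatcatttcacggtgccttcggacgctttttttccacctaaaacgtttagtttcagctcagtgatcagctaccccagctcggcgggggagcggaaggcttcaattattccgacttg
The Cd22 window held the EBF1 letters, starting 49 bases before the start site, and 0.904% of all 32851 windows held them. The Cd79a window held an E-box 154 bases and an ETS core 55 bases before the start site, letters found in 20.2% and 9.35% of all windows. Cr2 held an E-box, and the Pax5 window held none of the 4 motifs. The octamer, found in 1.74% of all windows, was in none of the windows of these genes. These are matches of letters, not measured binding. Only exact matches were searched, so a window without a mark may still hold a site with other letters.

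By exon length, the antigen receptor pair was the most abundant of the 9 genes. In WT lungs Cd79b was at 41.5 ± 4.43 RPKM (SD, n = 3; CPM per kilobase of exon) and Cd79a at 26.4 ± 1.81 RPKM. Cd22 (11.1 ± 1.24 RPKM), Fcer2a (10.7 ± 2.12 RPKM) and Blk (8.05 ± 0.891 RPKM) followed, and neighbours among these 3 had overlapping libraries. Ms4a1 was at 5.54 ± 0.407 RPKM and Ebf1 at 2.88 ± 0.0772 RPKM. Cr2 (1.86 ± 0.344 RPKM) and Pax5 (1.11 ± 0.170 RPKM) were the least abundant, and their WT libraries did not overlap. In KO lungs Pax5 was at 1.39 ± 0.0861 RPKM and Cr2 at 1.14 ± 0.172 RPKM (SD, n = 2), and their libraries overlapped, with Cr2 above Pax5 in KO3 (1.381 against 1.324 RPKM) and below it in KO1 and KO2.

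Of the 9 genes, 8 had a lower and 1 a higher estimate in KO, where 47.8% of all genes had a lower one. None passed the edgeR quasi-likelihood test at an adjusted p of at most 0.05, where 2.28% of the 18660 genes tested passed. Before adjustment, 4 of them (Ms4a1, Cd22, Cr2 and Ebf1) had p of at most 0.05, all lower, against 27.3% of all genes in either direction and 13.4% lower. The same 4 passed at an adjusted p of at most 0.05 with DESeq2, which called 20.9% of all genes, and with the 6 libraries kept separate, which called 18.9%. In both fits all 4 were lower in KO, where 10.4% and 9.07% of all genes were called lower, while 9.81% were called higher with 6 libraries. The edgeR exact test called none of the 9. The median log2 fold change of the 9 genes was -0.30, against 0.02 over all genes. Without WT1 it was -0.18, and the log2 differences of Fcer2a, Cd79b, Cd79a and Blk were then -0.14, -0.07, -0.04 and -0.18. In 6 of the 9 genes every KO library lay below every WT library, as it did in 20.8% of all genes, and in 1 of the 9 every KO library lay above, as in 20%. In whole lung RNA, fewer B cells and less RNA per B cell cannot be told apart.

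The antigen receptor pair had the estimates closest to 0, which moved to -0.29 for Cd79a and -0.34 for Cd79b once length and GC content were corrected for (edgeR adjusted p 0.0799 and 0.11). Cd79a (ENSMUSG00000003379, chromosome 7, 24897381 to 24902197) was at 41.5, 36.8 and 37.1 CPM in WT1 to WT3 and at 36.5, 35.5 and 34.4 CPM in KO1 to KO3. The groups did not overlap, but WT2 and KO1 were almost at the same level. KO minus WT was estimated at -0.10 on the log2 scale (95% interval -0.29 to 0.09, SE 0.07), and the edgeR adjusted p was 0.426. Cd79b (ENSMUSG00000040592, chromosome 11, 106311341 to 106314762) lies 7.75 Mb from Zpbp2. It was at 66.4, 58.0 and 54.0 CPM in WT and at 52.8, 54.3 and 51.7 CPM in KO. WT1 was the highest, and KO2 exceeded WT3, so the groups overlapped. With library size alone they did not, as KO2, the highest KO library, was at 53.58 CPM and WT3, the lowest WT library, at 54.08 CPM. The estimate was -0.16 on the log2 scale (95% interval -0.42 to 0.09, SE 0.10; edgeR adjusted p 0.351).

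Ms4a1, which encodes CD20, was among the genes with the most separated groups. Ms4a1 (ENSMUSG00000024673, chromosome 19, 11249675 to 11266241) was at 31.8, 36.9 and 34.2 CPM in WT and at 18.2, 25.5 and 25.5 CPM in KO. All KO libraries were below all WT libraries, and KO1 was the lowest. WT lungs averaged 34.3 ± 2.52 CPM (SD, n = 3), KO lungs 21.9 ± 5.17 CPM (SD, n = 2). On the log2 scale the difference was -0.64 (95% interval -1.06 to -0.23, SE 0.16), and the edgeR adjusted p was 0.0892. With 6 libraries it was 0.0377, and across the 17 alternatives it lay between 0.00196 and 0.274.

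Of the coreceptors, Cd22 and Cr2 had KO libraries below WT, and Fcer2a did not separate. Cd22 (ENSMUSG00000030577, chromosome 7, 30865402 to 30880342) was at 62.3, 56.3 and 49.8 CPM in WT and at 40.0, 45.4 and 45.5 CPM in KO. The gap between WT3 and KO3 was smaller than the range within WT. Cd22 thus had a log2 difference of -0.39 (95% interval -0.69 to -0.09, SE 0.12). Its edgeR adjusted p was 0.120, and 0.0438 with 6 libraries, between 0.0174 and 0.581 across the alternatives. Cr2 (ENSMUSG00000026616, chromosome 1, 195136811 to 195176716) was at 15.3, 17.7 and 12.1 CPM in WT and at 8.22, 9.18 and 11.2 CPM in KO. WT3 and KO3 were close to each other, and KO1 was the lowest. The log2 difference of -0.71 (95% interval -1.21 to -0.20, SE 0.20) was the lowest estimate of the 9 genes. Its edgeR adjusted p was 0.103, and 0.0452 with 6 libraries, between 0.00583 and 0.504 across the alternatives.

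The other identifier listed as Cr2, ENSMUSG00000094924, has no position in the annotation used. It had 64, 65 and 51 counts in WT and 15, 28 and 27 counts in KO. The KO counts were all below the WT counts, as for the main Cr2 row. On the log2 scale it differed by -1.31 (SE 0.33, edgeR adjusted p 0.086, and 0.0295 with 6 libraries, between 0.0134 and 0.237 across the alternatives). How reads were divided between the 2 rows was not examined, so its value is uncertain and it was left out of the counts over the 9 genes.

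Fcer2a (ENSMUSG00000005540, chromosome 8, 3681737 to 3694175) was at 40.0, 31.8 and 27.0 CPM in WT and at 26.9, 25.3 and 27.5 CPM in KO. WT1 was 1.48 times WT3, the widest range within WT among the 9 genes, and KO3 exceeded WT3. Its log2 difference was -0.30 (95% interval -0.75 to 0.14, SE 0.17; edgeR adjusted p 0.328). The kinase gene Blk (ENSMUSG00000014453, chromosome 14, 63372836 to 63417037) was at 24.4, 20.8 and 19.9 CPM in WT and at 17.3, 17.4 and 19.7 CPM in KO. WT3 and KO3 were almost level. Blk differed by -0.27 on the log2 scale (95% interval -0.57 to 0.02, SE 0.11; edgeR adjusted p 0.205).

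The regulators Pax5 and Ebf1 lay on opposite sides of 0. Pax5 (ENSMUSG00000014030, chromosome 4, 44524757 to 44710487) was at 11.5, 9.04 and 8.79 CPM in WT and at 12.8, 11.8 and 11.7 CPM in KO. It was the only one of the 9 genes with all KO libraries above all WT libraries, although WT1 came close to KO2 and KO3. With scaling by library size alone, WT1 (11.81 CPM) exceeded KO2 (11.60 CPM) and KO3 (11.57 CPM), and the groups overlapped. Pax5 was estimated 0.33 higher in KO on the log2 scale (95% interval -0.06 to 0.72, SE 0.15; edgeR adjusted p 0.235). Ebf1 (ENSMUSG00000057098, chromosome 11, 44617317 to 45008091) lies 53.5 Mb from Zpbp2. It was at 27.99, 28.93 and 27.44 CPM in WT and at 22.2, 17.3 and 16.9 CPM in KO. The WT libraries had a coefficient of variation of 2.68%, the smallest of the 9 genes, and KO1 lay between WT and the other KO libraries. For Ebf1 the log2 difference was -0.51 (95% interval -0.82 to -0.21, SE 0.12), and -0.27 once length and GC content were corrected for. Its edgeR adjusted p was 0.0765, and 0.0198 with 6 libraries, between 0.00184 and 0.448 across the alternatives. Ebf1 is also expressed outside B cells, in pericytes and adipocytes. Markers of adipocytes (9 genes) summed to 992 to 1515 CPM in WT and 278 to 459 CPM in KO, and those of pericytes (8 genes) to 608 to 734 CPM in WT and 530 to 656 CPM in KO. All 9 adipocyte genes had lower estimates, 2 of them called (Plin1 and Lpl), as did 5 of the 8 pericyte genes, of which none was called in edgeR and 2 had an unadjusted p of at most 0.05. Of the 3 pericyte genes with higher estimates, 1 had such a p. With 6 libraries 7 adipocyte genes were called lower, and 1 pericyte gene was called lower and 1 higher. In that fit 9.07% of all genes were called lower and 9.81% higher. None of these markers was at 0 in all libraries. Their part in the Ebf1 result was not tested.

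**Figure D1:**
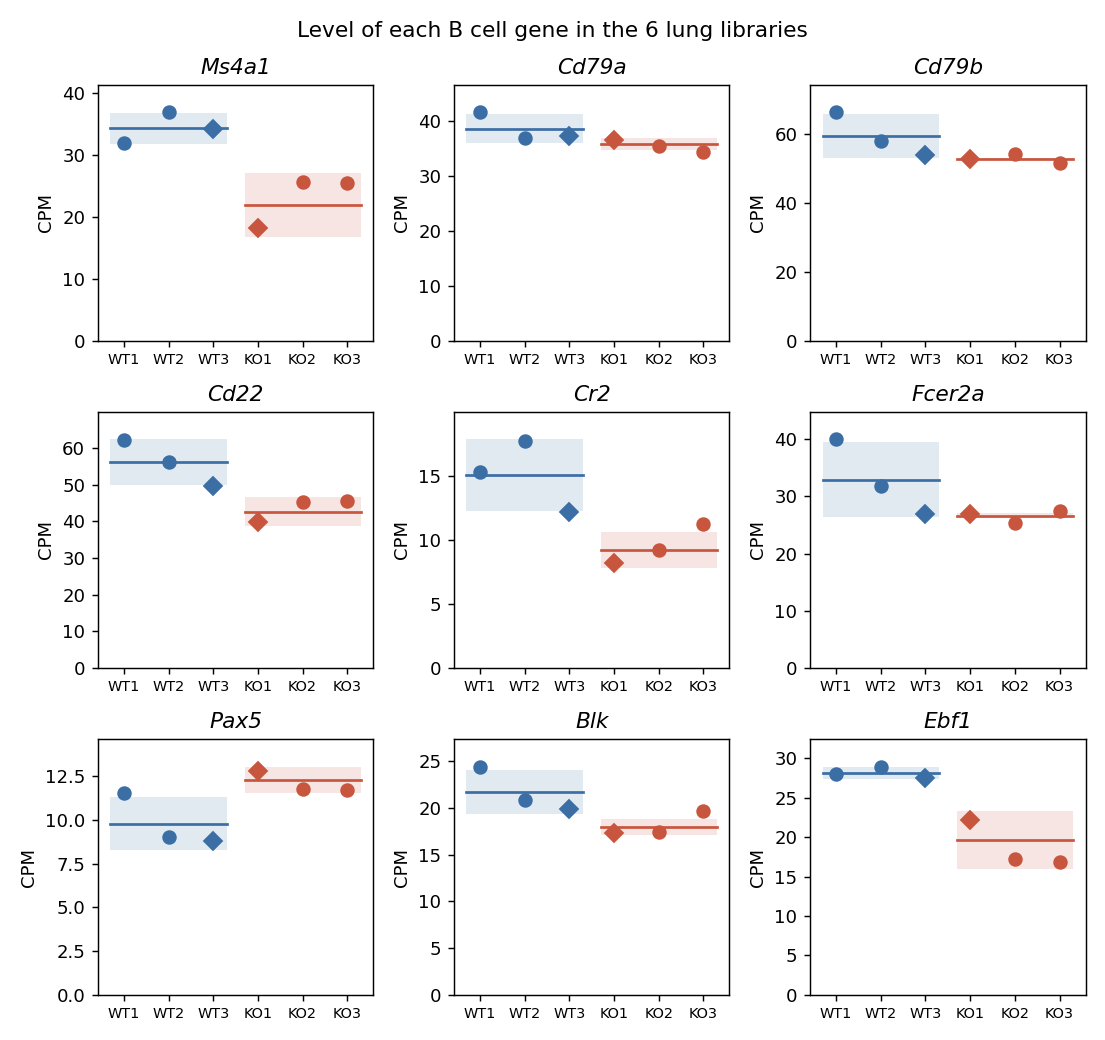
Level of each of the 9 genes (y axis, CPM, from 0) in the 6 libraries (x axis; blue WT, red KO, diamonds WT3 and KO1); lines and bands are the mean ± SD with KO2 and KO3 as 1 replicate. Every KO point lies below the WT points in 6 genes, such as Ms4a1 (18.2 to 25.5 CPM against 31.8 to 36.9 CPM), and above them in Pax5.

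The fold changes moved when gene length and GC content were corrected for together. Over 18524 genes, log2 fold changes fell with exon length (Spearman rho -0.33, a description across genes of the same libraries). The receptor pair has short transcripts, with 1.46 kb of exon in Cd79a and 1.43 kb in Cd79b, while Cr2, Ebf1 and Ms4a1 have 8.11, 9.76 and 6.19 kb. The last 3 also have the lowest GC content, with 41.4%, 43.1% and 40.6% against 50.6% to 54.9% in the other 6 genes, and length and GC content were not corrected for separately. With an offset for length and GC content in each library, 8 genes had log2 fold changes from -0.50 to -0.27, with Cd79a at -0.29 and Cd79b at -0.34, and Ebf1 moved from -0.51 to -0.27. Pax5, with 8.85 kb of exon and 50.6% GC, moved from 0.33 to 0.50, further from the others. None of the 9 passed the edgeR test with the offset (adjusted p 0.0799 to 0.333), nor did almost any other gene, with 3 called in all.

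**Figure D2:**
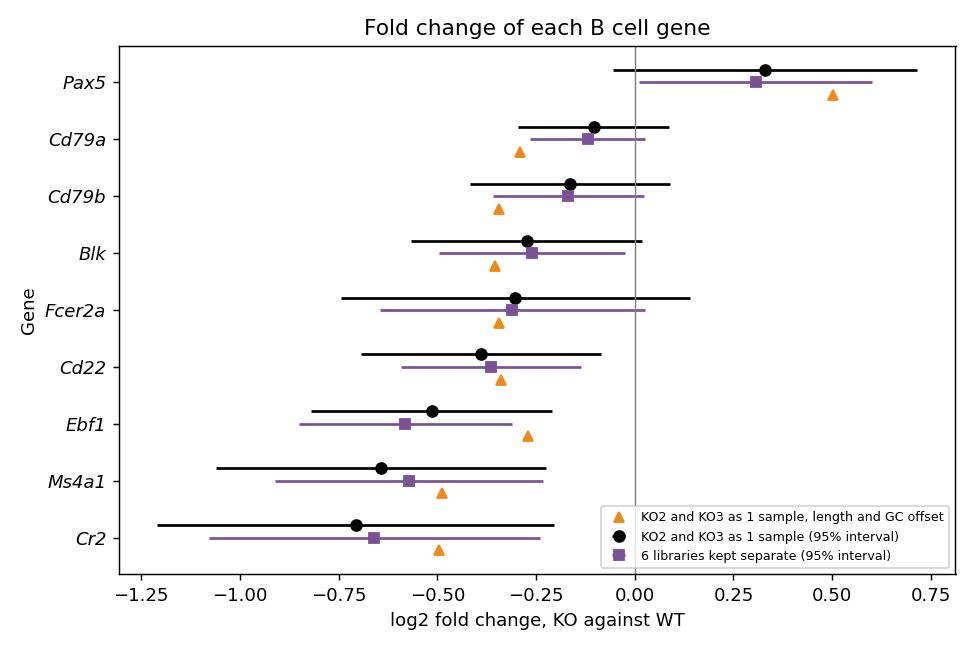
Log2 fold change of KO against WT (x axis) for each gene (y axis) with KO2 and KO3 as 1 sample (black, 95% interval), with 6 separate libraries (purple, 95% interval) and with the length and GC offset (orange, no interval). The intervals of Cr2, Ms4a1, Ebf1 and Cd22 lie below 0 in both fits, and the offset brings Cd79a to -0.29 and Ebf1 to -0.27.

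Within a library, the 9 genes were not in a fixed ratio to Cd79a. The log2 ratio of Pax5 to Cd79a was -1.85, -2.03 and -2.08 in WT and -1.51, -1.59 and -1.55 in KO, so every KO library was above every WT library. The log2 ratio of Ms4a1 to Cd79a was -0.38, 0.00 and -0.12 in WT and -1.004, -0.474 and -0.431 in KO, where every KO library was below. The ratio of Ebf1 also separated, as did that of Cd22, narrowly (0.424 in WT3 and 0.405 in KO3), and that of Cr2, by less than 0.01 between WT3 and KO3. The share of all genes whose ratio to Cd79a separates was not computed. In CPM, every KO library lay below every WT library in 20.8% of all genes and above in 20%. The ratio of Cd79b to Cd79a was 0.62 ± 0.07 (SD, n = 3) in WT and 0.57 ± 0.05 (SD, n = 2) in KO and overlapped, and those of Fcer2a and Blk overlapped too. These ratios remove the amount of B cell RNA in a library as far as Cd79a measures it, and they are not corrected for length or GC content. With that correction the log2 fold change was -0.29 for Cd79a, -0.27 for Ebf1 and -0.34 for Cd22. It was -0.49 for Ms4a1, -0.50 for Cr2 and 0.50 for Pax5.

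**Figure D3:**
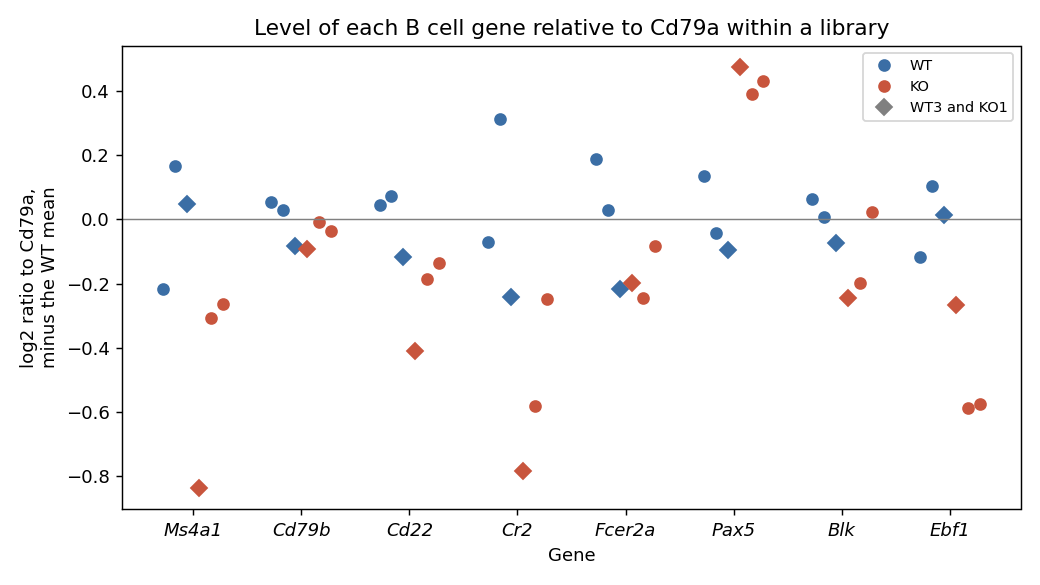
Log2 ratio of each gene's CPM to that of Cd79a in the same library, minus the WT mean of that ratio (y axis), for 8 genes (x axis; blue WT, red KO, diamonds WT3 and KO1). The Pax5 points of KO lie above those of WT, the Ms4a1, Cd22, Cr2 and Ebf1 points of KO lie below, and those of Cd79b, Fcer2a and Blk are mixed.

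The libraries with squamous transcripts were also compared among themselves. The log2 difference of KO1 from WT3 was -0.91 for Ms4a1, -0.56 for Cr2, -0.32 for Cd22 and -0.30 for Ebf1. That of KO2 and KO3 from WT1 and WT2 was -0.43, -0.70, -0.38 and -0.74 for the same genes. The sign was the same in both comparisons for all 9 genes, while Ms4a1 was further apart in the first and Ebf1 in the second. The share of all genes that kept their sign was not computed. The first comparison sets a single library against a single library, and there Cd79a (-0.025) and Cd79b (-0.032) were almost level. For Fcer2a, the difference was -0.01 in the first and -0.44 in the second. Pax5 was higher in KO in both, by 0.54 and 0.19. With WT3 and KO1 left out, Ms4a1, Cd22, Cr2 and Ebf1 passed the edgeR test (adjusted p 0.0365, 0.0353, 0.0156 and 0.00394), in a fit that called 11.9% of all genes. There KO2 and KO3 are a single KO sample, which is assumed to vary like WT1 and WT2, from which alone the spread was estimated.

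Other genes of the B cell receptor pathway came from 6 lists with 75 genes, of which 74 were tested, 46 with a lower and 28 with a higher estimate in KO. Of these, 1 was called lower and 2 higher by the edgeR quasi-likelihood test, against 0.906% and 1.38% of all genes. With 6 libraries the balance was the opposite, with 20 of 73 called lower and 3 higher, against 9.07% and 9.81% of all genes. Of 23 genes of receptor signalling, none was called, and 10 lower and 2 higher ones had an unadjusted p of at most 0.05 (27.3% of all genes, 13.4% lower). Their median log2 fold change was -0.15, and with 6 libraries 9 were called lower and 1 higher. Plcg2, the phospholipase of the receptor, was at 38.02 to 41.39 CPM in WT and 30.6 to 32.4 CPM in KO (log2 fold change -0.33, SE 0.06, edgeR adjusted p 0.0537, and 0.0113 with 6 libraries, between 2.33e-05 and 0.597 across the alternatives). The adaptor gene Grap was at 101 to 107 CPM in WT and 118 to 129 CPM in KO (log2 fold change 0.28, SE 0.05, edgeR adjusted p 0.0576, and 0.0203 with 6 libraries, between 8.1e-05 and 0.767 across the alternatives). Correcting for length and GC content brought Grap to 0.10. In neither gene did the groups overlap.

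Of the antigen receptor itself, Ighd was not analysed here. Ighm, the heavy chain of membrane and secreted IgM, was at 349, 513 and 507 CPM in WT and at 390, 564 and 572 CPM in KO. WT1 and KO1 were the lowest of their groups, and the log2 fold change was 0.08 (SE 0.24, adjusted p 0.869). Its sign turned under 3 alternatives. For Cd81 the log2 difference was 0.06 (SE 0.08, edgeR adjusted p 0.708), and its sign turned under 2.

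Of 14 transcription regulators, 9 had a lower and 5 a higher estimate, with a median of -0.23. The only one called was Id3, an inhibitor of E proteins that many cell types express. Id3 rose from 154 to 167 CPM in WT to 211 to 229 CPM in KO (log2 fold change 0.46, SE 0.06, edgeR adjusted p 0.0472). Correcting for length and GC content brought Id3 to 0.29 (adjusted p 0.0667), and it also missed the threshold with library size alone (0.052) and the exact test (0.359), in a span of 4.82e-09 to 0.359 across the alternatives. With 6 libraries 4 of the regulators were called lower and 1 higher, where 9.07% and 9.81% of all genes were. Of 20 surface and homing genes, 16 had a lower estimate, with a median of -0.22. Tlr9, an endosomal DNA sensor of B cells and dendritic cells, was the only one called, while 6 were called lower with 6 libraries (9.07% of all genes). Tlr9 fell from 7.71, 8.34 and 8.17 CPM in WT to 3.64, 4.63 and 4.16 CPM in KO (log2 fold change -0.999, SE 0.133, edgeR adjusted p 0.0448). It missed the threshold with the offset (0.0663) and the exact test (0.185), in a span of 4.41e-10 to 0.189 across the alternatives. All KO libraries were below all WT libraries for Tlr9, and above them for Id3.

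The 7 plasma cell genes all had higher estimates, with a median of 0.20, and 1 was called. That gene, Sdc1, is a marker of plasma cells but is also expressed in epithelium. Sdc1 rose from 191 to 209 CPM in WT to 257 to 267 CPM in KO (log2 fold change 0.39, SE 0.06, edgeR adjusted p 0.0487). It missed the threshold with library size alone (0.053), no filter on low counts (0.053), the offset (0.0681) and the exact test (0.558), in a span of 1.23e-08 to 0.558 across the alternatives. Of 7 ligands and cytokines that act on B cells, none was called or had an unadjusted p of at most 0.05. Those with the smallest p were Il4 (log2 fold change 0.94, SE 0.57, adjusted p 0.352) and Cd40lg (0.32, SE 0.24, adjusted p 0.460), both under 1 CPM in every library. Without KO1 Il4 was at 1.5, and Cd40lg ranged from 0.20 without KO3 to 0.47 without KO1. No gene was called when any single WT library was left out. Without KO1, Id3, Tlr9 and Sdc1 were not called either (edgeR adjusted p 0.0939, 0.0854 and 0.106), nor was Tlr9 without KO3 (0.0502) or Sdc1 without KO2 (0.0512).

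**Figure D4:**
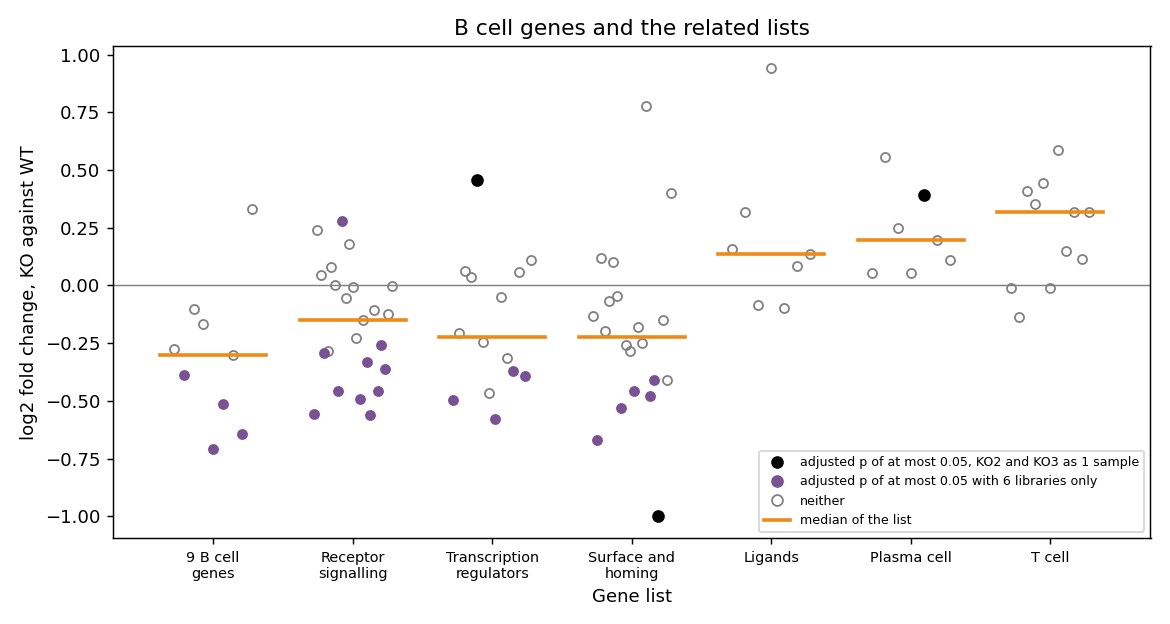
Log2 fold change of KO against WT (y axis) of each gene in the list of 9, in 5 of the pathway lists and in the T cell list (x axis); black points passed with KO2 and KO3 as 1 sample, purple points passed only with 6 libraries, open points passed in neither, and orange bars are medians. The medians run from -0.30 for the 9 genes to 0.32 for T cell genes.

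Markers of other cells were read beside these values. The 9 B cell genes summed to 270 to 321 CPM in WT and 235 to 244 CPM in KO. The 11 T cell genes summed to 82.66 to 100.7 CPM in WT and 101.2 to 106.2 CPM in KO, with 0 called and 1 at an unadjusted p of at most 0.05 in edgeR. The 7 plasma cell genes summed to 438 to 474 CPM in WT and 536 to 579 CPM in KO. Both the T cell and the plasma cell sums were thus higher in every KO library than in every WT library. The 7 macrophage genes summed to 471 to 582 CPM in WT and 417 to 433 CPM in KO, and 1 of them, Mrc1, was called lower. With 6 libraries 3 of the 7 were called lower, as were 9.07% of all genes. Erythroid transcripts (7 genes) reached 19010 CPM in KO2 and 19750 CPM in KO3, against 2403 to 5525 CPM in the other libraries. Lymph node stroma genes were near 0, with the 4 listed summing to 0.477 to 1.19 CPM in all libraries. No marker of these lists was at 0 in all libraries. The part of these cells in the B cell values was not tested.

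**Figure D5:**
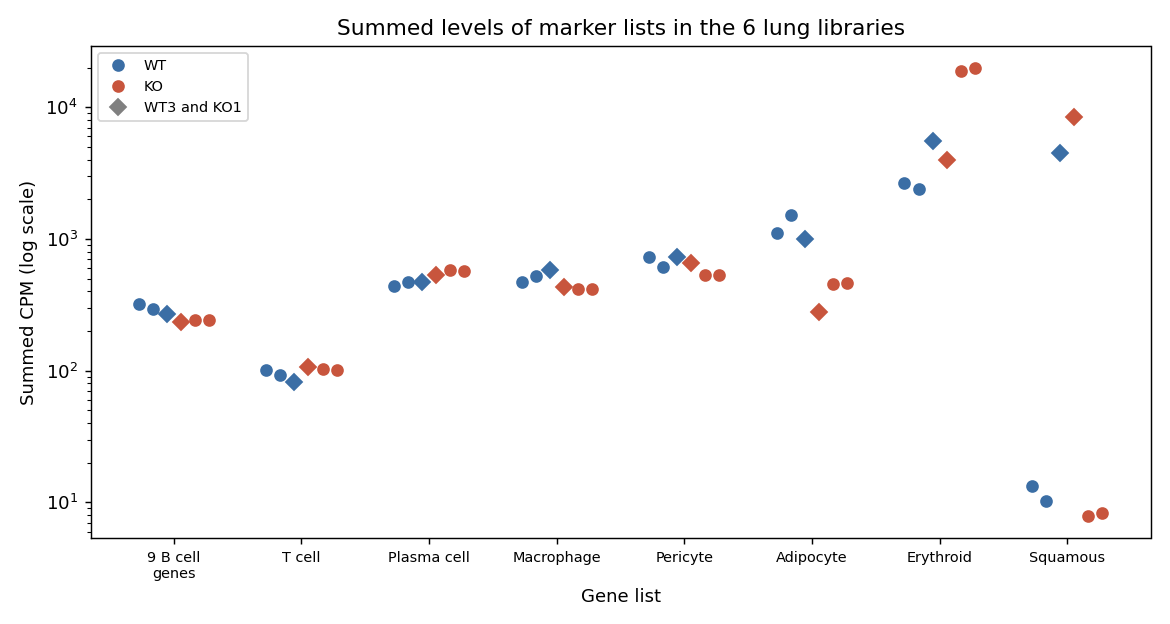
Summed CPM of the markers of each cell type (y axis, log scale) in the 6 libraries (x axis, lists; blue WT, red KO, diamonds WT3 and KO1). B cell, macrophage and adipocyte sums are lower, and T cell and plasma cell sums higher, in every KO library than in every WT library. Pericyte sums overlap, erythroid sums are high in KO2 and KO3, and squamous sums are high in WT3 and KO1.

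The genes most like the mean profile of the 9 genes without Ebf1 were Lifr, Lgr6, A830082K12Rik, Herc3 and Kif21b. Their Pearson correlation of log2 CPM with that profile over 6 libraries was 0.992 to 0.997, the highest of 15142 genes at 1 CPM or more on average. The profile was 0.27, 0.14 and -0.02 in WT and -0.20, -0.13 and -0.07 in KO. Among the 9 genes, Cd22 followed it closest (0.990) and Pax5 ran against it (-0.41). Each of the 9 but Ebf1 is itself part of the profile, so these values are not independent of it. With so few libraries, such correlations describe these samples and are not a test.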

How the data were processed

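The deposited table holds raw counts, made by the authors by trimming and quality filtering the reads, aligning them to GRCm38 (mm10) with STAR and counting reads per gene with HTSeq-count in GenPipes. The submitters' processing notes name Trimmomatic 0.36, STAR 2.5.3a, Picard 2.9.0 and HTSeq 0.6.0. The annotation release and the strand setting are not given in the sources used here. Antisense genes and a microRNA that overlap Ms4a1, Cd22, Pax5 and Ebf1 and are in the table had at most 8 counts. Positions and exon lengths came from GENCODE M21 (GRCm38), which held 97.5% of the identifiers, and promoters from RefSeq (GRCm38.p6).

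Counts of KO2 and KO3 were summed. Genes were filtered with filterByExpr, scaled with TMM and tested, KO against WT, with glmQLFit and glmQLFTest of edgeR 4.0.16 in R 4.3.3, two-sided, with Benjamini-Hochberg adjustment over all tested genes. CPM used TMM-scaled library sizes of the 6 libraries, and means ± SD took the mean of KO2 and KO3 as 1 replicate. Each standard error was the estimate divided by the square root of its F statistic, and 95% intervals followed from it. Alternatives included DESeq2 1.42.0, other scalings and filters, left-out libraries and an offset for length and GC content, 17 in all. The fit was tested on simulated data, and the outcome is not given here. Counting error was at most 4.40% of the lowest count of any of the 9 genes. It covers counting alone, as reads copied from 1 molecule are not independent. P-values measure the spread between these mice only.

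The 9 genes, the gene lists and the tests were chosen with earlier results of these data known, as was the summing of KO2 and KO3. Genes named besides the 9 were Zpbp2, Ighm and, per pathway list, those called or else the 2 with the smallest p, and the 5 genes most like their mean profile. Marker genes of other cells (such as Sftpc, Sftpb, Ager, Pecam1, Plin1, Lpl, Mrc1 and Siglech) and the genes of the closing observations were named after their values were seen. One further gene of the rule is not reported here.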

Additional observations from a re-analysis of the deposited data

How the results depend on the processing

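Over 17 alternatives for each of the 9 genes, 153 results in all, 140 kept their direction and their side of the threshold, 13 kept their direction and passed, and 0 turned. As 6 separate libraries, those that passed had log2 fold changes of -0.36 for Cd22, -0.66 for Cr2, -0.58 for Ebf1 and -0.57 for Ms4a1 (edgeR adjusted p 0.0198 to 0.0452). With DESeq2 they were -0.39, -0.71, -0.52 and -0.65 in that order, and without WT3 and KO1, with the spread taken from 2 WT libraries alone, they were -0.39, -0.70, -0.74 and -0.43. Each of these alternatives thus called 4 of the 9 genes, and the cause was not tested, except that the first counts KO2 and KO3 as independent. With 6 separate libraries and a replicate block, 1 of the 9 was called, Ms4a1 at -0.59. The numbers 1 to 3 do not pair the mice, since deviations of same-numbered libraries correlated at -0.54, 0.69 and -0.76.

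The number of genes called, 426 in the main analysis, was 3402 with 6 separate libraries, 1157 with the replicate block, 3908 with DESeq2, 209 with the exact test, 937 with at least 10 counts in every library, 2256 without WT3 and KO1, 0 without KO2 and KO3 and 3 with the length and GC offset. Leaving out 1 library at a time gave 0 to 418, with 0 without WT1, WT2 or WT3 and 17 without KO1. Leaving out WT1 moved Fcer2a, Cd79b, Cd79a and Blk to -0.14, -0.07, -0.04 and -0.18, and leaving out KO1 moved Ms4a1 to -0.43. With library size alone, 306 were called and the share higher in KO went from 60.3% to 38.2%, while the 9 genes kept their signs. The mean of Cd79b in KO then went from 52.9 to 51.9 CPM and that of Fcer2a from 26.7 to 26.1 CPM, more than their SD. Of the other genes named, Cd81 turned to -0.06 without KO1 (-0.06 to 0.08 over single libraries left out) and to -0.06 without WT3 and KO1. Ighm turned to -0.23 without KO2 and KO3, -0.06 with the offset and -0.08 without WT1 (-0.08 to 0.31 over single libraries left out), and Il4 turned to -0.21 without KO2 and KO3.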

Other observations

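Several B cell regulators lay just over the threshold. These genes were chosen after their values were seen. Bach2, a repressor that holds back plasma cell differentiation, was at 29.9 to 32.7 CPM in WT and 20.3 to 23.2 CPM in KO (log2 fold change -0.50, SE 0.08, edgeR adjusted p 0.0506, 0.00852 with 6 libraries, between 4.52e-06 and 0.332 across the 17 alternatives). Correcting for length and GC content brought Bach2 to -0.29 (edgeR adjusted p 0.169). Irf4, a factor of activated B cells and plasma cells, was at 14.8 to 16.6 CPM in WT and 9.95 to 10.8 CPM in KO (log2 fold change -0.58, SE 0.09, adjusted p 0.0506, 0.00873 with 6 libraries, between 8.38e-07 and 0.491). Spib, an ETS factor of B cells and plasmacytoid dendritic cells, was at 28.03 to 30.53 CPM in WT and 21.9 to 22.3 CPM in KO (log2 fold change -0.39, SE 0.07, adjusted p 0.0521, 0.00865 with 6 libraries, between 4.13e-06 and 0.576). Their groups did not overlap in any of the 3, as for 20.8% of all genes in this direction. Of the 4 plasmacytoid dendritic cell markers examined, 3 also had lower estimates, with none called and 1 at an unadjusted p of at most 0.05 in edgeR. Siglech was at 2.84 to 4.60 CPM in WT and 2.387 to 2.703 CPM in KO (adjusted p 0.217).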
